A study of Homo sapiens with 2 samples.

Results

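TAL1, LYL1, LMO2, LDB1, ERG, FLI1, ETV2, ETV6, ETS1 and HHEX are 10 genes of transcription factors and cofactors that act in early endothelium and blood. They were chosen by name, and all 10 were found in both organoids among the 36601 genes counted. The organoids were 2 blood-generating heart-forming organoids (BG-HFOs) of day 14, named 32.7 and 33.10, grown from hES3 NKX2.5-eGFP, an established human embryonic stem cell line with a green fluorescent reporter of the cardiac gene NKX2-5. Aggregates of these cells lay in Matrigel and were steered towards heart, vessels and blood by changing WNT signalling in a first and a second phase and by cytokines and growth factors. Each organoid gave 1 library of single-cell RNA sequencing, with no other treatment or genotype among the samples, so the comparisons were made between cell lineages of the same organoids. Both organoids came from 1 cell line, and their spread does not cover differences between lines.

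TAL1 (also called SCL) and its close relative LYL1 are basic helix-loop-helix factors that bind DNA with E proteins, and LMO2 and LDB1 bridge them to GATA factors in a complex known for its role in blood formation. ERG, FLI1, ETV2, ETV6 and ETS1 share the ETS domain, which binds DNA around a GGAA core. ETV2 is known as a short-lived initiator of endothelium and blood in mesoderm, ERG as a factor of endothelial identity, FLI1 as a regulator of megakaryocytes, and HHEX as a homeobox factor of early endothelium, blood and liver.

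Cells were assigned to lineages by raw counts of unique molecular identifiers (UMIs, 1 per captured molecule) of 7 genes, none of them a member, and a cell entered a gate only if it was positive for that gene alone. The gates were CDH5 (VE-cadherin, endothelial cells; 2142 and 2016 cells in organoids 32.7 and 33.10), PTPRC (CD45, leukocytes; 820 and 382), PF4 (platelet factor 4, megakaryocytes; 1434 and 3497) and HBZ (embryonic zeta globin, erythroid cells; 1059 and 1970). They were set against MYH6 (a cardiac myosin, cardiomyocytes; 1306 and 1339), COL3A1 (collagen III, mesenchymal cells; 2591 and 2196) and AFP (alpha-fetoprotein, endoderm; 166 and 10). In every pair of values below, organoid 32.7 comes first and organoid 33.10 second. Of 7 lists of 8 lineage markers, each had its highest sum in its own gate, as with 2866 to 3173 CPM (the usual scaling of a gene's UMIs to the total UMIs of the gated cells) of endothelial markers in the CDH5 gate and 439 to 466 in the COL3A1 gate. The PF4 gate also held 4169 to 4679 CPM of erythroid, 1006 to 1083 CPM of endothelial and 1016 to 1049 CPM of leukocyte markers, and their part in the PF4 values below was not tested. The libraries held 191152562 UMIs in 16866 barcodes and 233818881 UMIs in 19948 barcodes, and 100 barcodes occurred in both. The counts still contain free RNA, which adds UMIs of a gene to cells that do not express it.

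**Figure D1:**
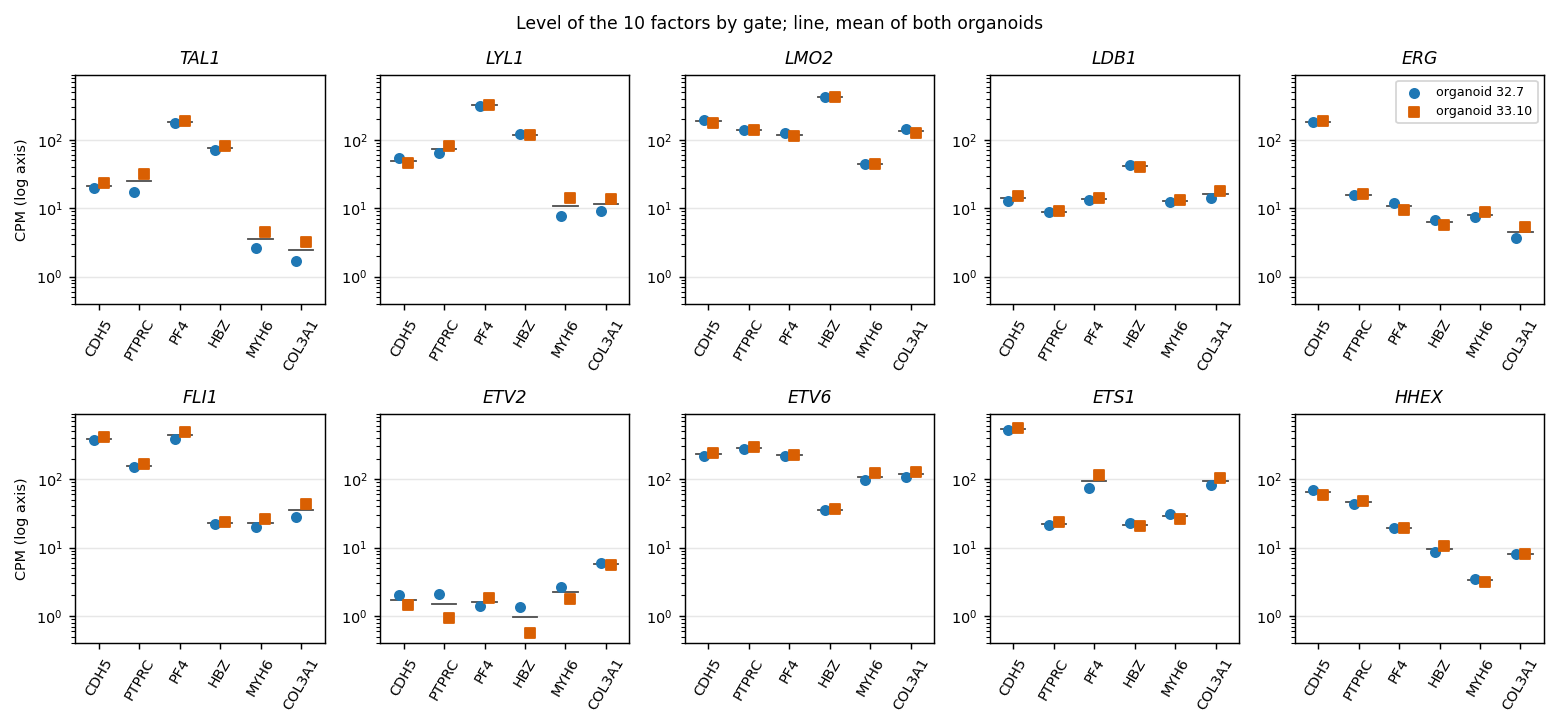
Level of the 10 genes in the gates, in CPM on a log axis, with 1 point per organoid. TAL1 and LYL1 were highest in the PF4 gate, LMO2 and LDB1 in the HBZ gate (423 and 416 CPM of LMO2), and ERG and ETS1 in the CDH5 gate (180.2 and 187 CPM of ERG).

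TAL1 was highest in the PF4 gate, with 176 and 191 CPM. The HBZ gate followed with 71.5 and 82.5 CPM, and the PTPRC gate (17.4 and 32.1) and the CDH5 gate (19.8 and 23.0) overlapped each other. Cardiomyocytes and mesenchymal cells, which are not known to use the gene, held 2.58 and 4.49 CPM (MYH6 gate) and 1.69 and 3.20 CPM (COL3A1 gate), each time more in organoid 33.10. After every cell had been thinned to 3000 UMIs, 35.5% and 41.4% of PF4 cells had a TAL1 UMI, against 0.484% and 0.880% of COL3A1 cells. Before thinning, these shares were 46.5% and 60.7% at median depths of 5232.5 and 6486 UMIs and 1.85% and 3.92% at median depths of 12829 and 13164.5 UMIs. Cells under 3000 UMIs were left out, so that 988 and 2746 PF4 cells and 2567 and 2183 COL3A1 cells remained.

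LYL1 had the same order of the blood gates as TAL1. Its level was 316 and 328 CPM in the PF4 gate, 121 and 117 in the HBZ gate, 63.7 and 81.7 in the PTPRC gate and 53.9 and 45.7 in the CDH5 gate, and neighbours in this order did not overlap. It held 7.59 and 14.0 CPM in the MYH6 gate and 9.10 and 13.8 CPM in the COL3A1 gate. Patterns were compared over 14 sums of class and organoid. The classes were the CDH5, PTPRC, PF4, HBZ, MYH6 and COL3A1 gates and the cells positive for both PF4 and HBZ. The AFP gate had too few cells and was left out. Among 12580 genes, the one whose log2(CPM + 1) was most like that of TAL1 was LYL1 (Pearson's r = 0.989). TAL1 was in turn the gene most like LYL1. The likeness is a description, since the 14 points share 2 libraries.

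TAL1 lies on chromosome 1 (47216290 to 47232225, minus strand), and LYL1 on chromosome 19 (13099033 to 13103161, minus strand), both in GRCh38 coordinates. Of the 10 members, 7 matched the RefSeq table of promoters used here, with 11 windows among them, and LMO2, FLI1 and ETS1 did not. The 250 bases before a listed start of TAL1 are printed because TAL1 and LYL1 moved together over the gates and their complex is known to pair with GATA factors. Capitals mark GATAA, the letters that GATA factors bind, and GGAA, the ETS core, or their complements TTATC and TTCC (5′ to 3′ on the gene's minus strand, RefSeq, GRCh38.p14, chr1:47232336-47232585).
TAL1 promoter: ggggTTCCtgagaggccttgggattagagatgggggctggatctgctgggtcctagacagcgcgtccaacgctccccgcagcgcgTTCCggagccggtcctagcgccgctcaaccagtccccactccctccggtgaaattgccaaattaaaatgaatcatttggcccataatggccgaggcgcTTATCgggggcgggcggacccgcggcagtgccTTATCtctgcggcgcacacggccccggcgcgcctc
It holds 2 GATAA matches, 67 and 35 bases before the start, and 2 GGAA matches, both motifs searched on both strands. A second TAL1 window (chr1:47231716-47231965) has no GATAA match and 4 GGAA matches. The LYL1 window has 1 GATAA match, 27 bases before the start, and the HHEX window has 1, 30 bases before it, while the windows of LDB1, ETV6 and ETV2 have none. Of all 35116 windows of this length, 20.4% held GATAA, 92.7% held GGAA and 61.8% held CANNTG, the E-box letters that helix-loop-helix factors bind. A match describes the letters and not a bound site.

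LMO2, the bridging subunit, had another order than TAL1. The HBZ gate was highest with 423 and 416 CPM, followed by the CDH5 gate with 197 and 179. The PTPRC gate (141 and 137), the COL3A1 gate (143 and 126) and the PF4 gate (127 and 112) formed a chain in which each range overlapped the next. Within each organoid, the PF4 gate was below the COL3A1 gate. The MYH6 gate held 44.2 and 44.8 CPM.

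LDB1, which binds LMO proteins through their LIM domains, reached 42.6 and 40.5 CPM in the HBZ gate. It had 12.9 and 15.2 CPM in the CDH5 gate, 8.75 and 9.08 in the PTPRC gate, 13.1 and 14.2 in the PF4 gate, 12.5 and 13.3 in the MYH6 gate and 14.3 and 18.1 in the COL3A1 gate. LMO2 and LDB1 thus had their highest level in the erythroid gate, and TAL1 and LYL1 theirs in the megakaryocyte gate.

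ERG was at 180.2 and 187 CPM in the CDH5 gate. The PTPRC gate came next with 15.4 and 16.2, then the PF4 gate (11.9 and 9.36), the MYH6 gate (7.52 and 8.67), the HBZ gate (6.68 and 5.76) and the COL3A1 gate (3.63 and 5.27), and neighbours among these 6 gates did not overlap. After thinning to 3000 UMIs, 38.2% and 39.5% of CDH5 cells and 0.900% and 1.25% of COL3A1 cells had an ERG UMI. Before thinning, the shares were 77.8% and 75.0% at median depths of 13178.5 and 11169 UMIs and 3.20% and 4.74%. ERG in the COL3A1 gate stood at 2.01% and 2.82% of its CDH5 level. The 8 endothelial markers ranged there from ROBO4 (1.40% and 1.87%) to TEK (38.4% and 34.8%), and ERG lay near the low end of that span.

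ERG spans chromosome 21 (38380027 to 38661780, minus strand), and the table lists several starts for it. The windows of 2 starts far apart are printed because ERG was the member with the largest difference between endothelial and reference cells (minus strand, RefSeq, GRCh38.p14, chr21:38660668-38660917 and chr21:38498478-38498727, capitals as above).
ERG promoter, upstream start: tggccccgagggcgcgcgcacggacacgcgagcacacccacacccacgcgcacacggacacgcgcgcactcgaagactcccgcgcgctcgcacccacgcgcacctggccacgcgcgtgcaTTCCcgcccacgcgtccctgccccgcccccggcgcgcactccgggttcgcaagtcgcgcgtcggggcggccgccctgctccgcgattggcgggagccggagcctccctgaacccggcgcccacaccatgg
ERG promoter, downstream start: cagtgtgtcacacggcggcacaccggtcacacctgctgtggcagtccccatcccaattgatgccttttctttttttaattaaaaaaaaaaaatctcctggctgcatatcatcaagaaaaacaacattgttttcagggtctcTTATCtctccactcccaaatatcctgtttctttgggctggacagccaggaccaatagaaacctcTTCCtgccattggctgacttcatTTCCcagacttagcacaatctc
The upstream window has 1 GGAA match and no GATAA match, and the downstream window has 2 GGAA matches and 1 GATAA match, 109 bases before its start. The libraries were made from the 3′ ends of transcripts, and the counts do not tell which start was used.

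FLI1 was shared by endothelial cells and megakaryocytes. The PF4 gate held 385 and 489 CPM and the CDH5 gate 367 and 407, with overlapping ranges. The PTPRC gate had 148 and 167 CPM, and the COL3A1 gate 28.4 and 43.3, the MYH6 gate 19.7 and 26.3 and the HBZ gate 21.9 and 23.3. The MYH6 and HBZ gates overlapped each other.

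ETS1, which lies 98976 bases from FLI1 on chromosome 11 in the opposite orientation, was at 529 and 564 CPM in the CDH5 gate. The PF4 gate held 74.9 and 116 CPM and overlapped the COL3A1 gate (80.7 and 105). In the PF4 gate, ETS1 stood at 14.2% and 20.5% of its CDH5 level and FLI1 at 105% and 120.0% of its own. The MYH6 gate (30.6 and 26.3), the PTPRC gate (21.5 and 23.4) and the HBZ gate (22.6 and 20.4) were lower.

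ETV6, a repressor of the ETS family known for its role in blood stem cells, was broad. Leukocytes had 272 and 298 CPM, and the CDH5 gate (215 and 244) and the PF4 gate (221 and 228) overlapped each other below them. Mesenchymal cells (107 and 127) and cardiomyocytes (95.6 and 123) also overlapped, and erythroid cells had 34.8 and 36.9 CPM.

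ETV2, the initiator, was low in every gate. It had 2.00 and 1.46 CPM in the CDH5 gate, 2.08 and 0.921 in the PTPRC gate, 1.41 and 1.82 in the PF4 gate, 1.34 and 0.567 in the HBZ gate and 2.66 and 1.75 in the MYH6 gate, from 7 to 62 UMIs each. The COL3A1 gate stood apart with 5.87 and 5.63 CPM from 222 and 190 UMIs, at 294% and 386% of the CDH5 level. After thinning, 1.85% and 1.98% of COL3A1 cells and 0.617% and 0.392% of CDH5 cells had an ETV2 UMI. Before thinning, the shares were 7.76% and 7.88% and 2.75% and 1.79%. No annotated gene overlaps ETV2 on its strand (chromosome 19, 35641745 to 35644871, plus strand), and the nearest coding gene on that strand, COX6B1, lies 3452 bases away.

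HHEX had its highest level in the AFP gate, with 85.3 and 97.7 CPM from 118 and 17 UMIs in 166 and 10 cells. Among the other gates it went from the CDH5 gate (69.9 and 59.0 CPM) to the PTPRC gate (43.99 and 47.7), the PF4 gate (19.1 and 19.5), the HBZ gate (8.69 and 10.4), the COL3A1 gate (7.96 and 7.91) and the MYH6 gate (3.49 and 3.18). The AFP gate had too few cells in organoid 33.10 for a test. That gate held 48.5 and 23.0 CPM of ETV6, from 71 UMIs over both organoids, and 23.9 and 5.75 of LMO2, from 34. Its 10 cells in organoid 33.10 held 174023 UMIs of all genes, so the ETV6 and LMO2 values there rest on very few molecules.

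To ask which lineages differ, UMIs were summed per gate and organoid and compared by the quasi-likelihood test of edgeR, the 2 organoids being the replicates and p-values being adjusted by Benjamini-Hochberg over the 21173 genes tested. All 10 members passed the filter on low counts. Cells were not used as replicates. The p-values measure the spread between 2 organoids of 1 line, pooled over all classes of a fit and moderated over genes. The main fit held all gates but AFP, and also the cells positive for both PF4 and HBZ. A p-value thus rests partly on classes outside its comparison. The test's scaling placed fitted log2 fold changes above the plain CPM ratios by 0.47 for the HBZ gate over the reference and 0.46 over the CDH5 gate, and by 0.22 to 0.24 for the PTPRC and PF4 gates over the same, and moved PF4 over HBZ by -0.24. Globins made up 10.5% and 10.4% of the UMIs of the HBZ gate.

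**Figure D2:**
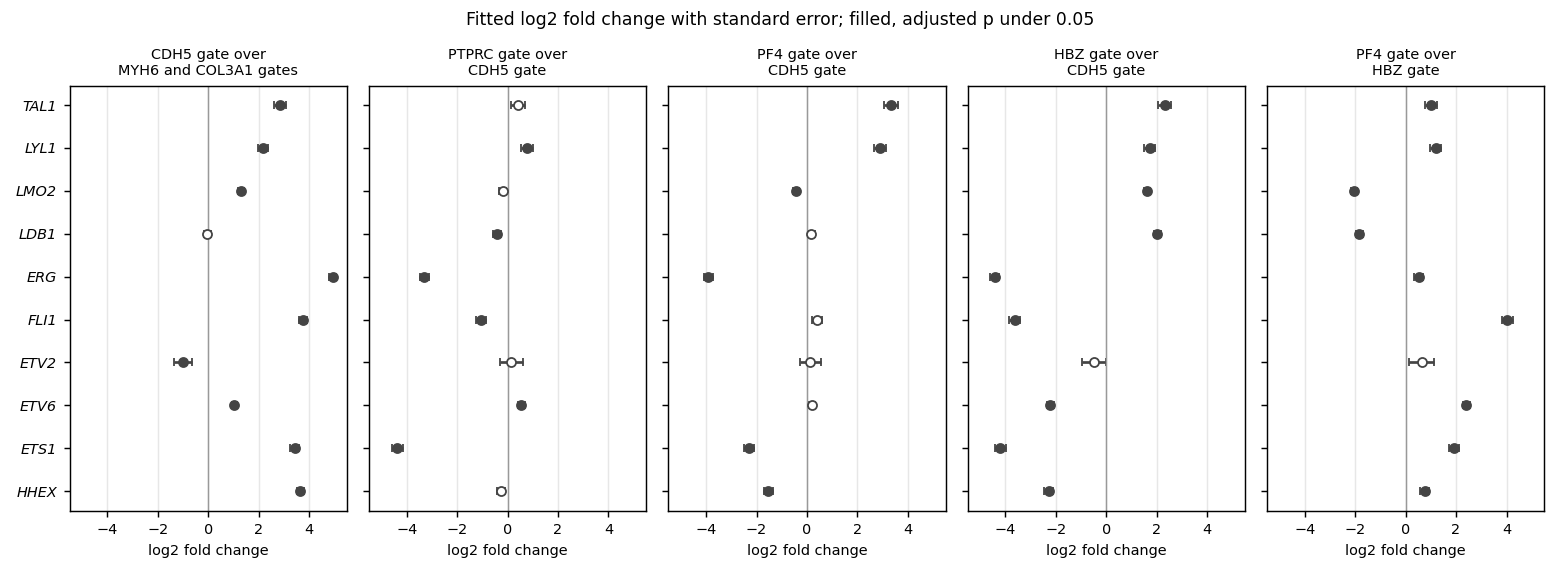
Fitted log2 fold change of each gene with its standard error as the bar, by comparison, with filled points where the adjusted p was under 0.05. Over the CDH5 gate, the HBZ gate was higher in TAL1, LYL1, LMO2 and LDB1 (LMO2 1.62) and lower in ERG, FLI1, ETV6, ETS1 and HHEX (ERG -4.43).

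In the CDH5 gate, 8 of the 10 members were higher than in the mean of the MYH6 and COL3A1 gates and 1 was lower, where 27.5% of all genes tested were called higher and 29.8% lower. The median log2 fold change was 2.52 over the members and -0.03 over all genes. ERG had the largest value (4.94 ± 0.14 SE, adjusted p = 3.7e-10), followed by FLI1 (3.76 ± 0.17), HHEX (3.66 ± 0.15), ETS1 (3.42 ± 0.16), TAL1 (2.86 ± 0.24) and LYL1 (2.17 ± 0.19). LMO2 (1.29 ± 0.11) and ETV6 (1.03 ± 0.11) had smaller ones. ETV2 was called lower (-1.02 ± 0.36, adjusted p = 0.028), though its 2.00 and 1.46 CPM overlapped the MYH6 gate (2.66 and 1.75). LDB1 was not called (-0.03 ± 0.12, adjusted p = 0.85).

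Over the same reference, leukocytes of the PTPRC gate had 7 members higher and 2 lower, where 31.6% and 34.1% of all genes were called in those directions (median 1.61 over members, -0.08 over all genes). HHEX had a log2 fold change of 3.40 ± 0.16, TAL1 of 3.27 ± 0.25 and LYL1 of 2.94 ± 0.19, and ETS1 (-0.95 ± 0.18) and LDB1 (-0.45 ± 0.14) were lower. The PF4 gate had 8 members higher and none lower, where 27% and 32.6% of all genes were called (medians 1.17 and -0.08), led by TAL1 with 6.18 ± 0.24 (adjusted p = 1.0e-09), LYL1 with 5.08 ± 0.20 and FLI1 with 4.15 ± 0.17. LDB1 (0.15 ± 0.12) was not called in the PF4 gate. ETV2 was called in neither gate (-0.87 ± 0.41, adjusted p = 0.077, and -0.88 ± 0.38, adjusted p = 0.062), and with the organoid as a block it was lower in both (adjusted p = 0.023 and 0.029, ranges over all alternatives 0.023 to 0.12 and 0.024 to 0.21). These comparisons share their reference cells, a mean of 2 unlike gates. LMO2 was called higher in the PTPRC gate (1.09 ± 0.11) and in the PF4 gate (0.85 ± 0.11). Its CPM in the PTPRC gate (141 and 137) overlapped that of the COL3A1 gate (143 and 126). In the PF4 gate (127 and 112) LMO2 was below the COL3A1 gate in each organoid. The MYH6 gate, the other part of the reference, held 44.2 and 44.8 CPM of LMO2. ETS1 was called higher in the PF4 gate (1.12 ± 0.16), where its 74.9 and 116 CPM overlapped the COL3A1 gate (80.7 and 105).

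The HBZ gate had 6 members higher and 3 lower than the reference, where 25.7% and 37% of all genes were called (medians 0.94 and -0.21). TAL1 was higher by 5.18 ± 0.24, its relative LYL1 by 3.89 ± 0.19, LMO2 by 2.91 ± 0.11 and LDB1 by 1.99 ± 0.12. ETV6 (-1.18 ± 0.12), ETS1 (-0.79 ± 0.18) and ETV2 (-1.52 ± 0.42) were lower, and FLI1 was not called (0.13 ± 0.18). ERG was called higher (0.51 ± 0.16, adjusted p = 0.014), but the log2 ratio of its CPM values was 0.05, and with 5% of free RNA removed the call was lost (range of adjusted p over alternatives 0.0012 to 0.074).

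Over the CDH5 gate, the PTPRC gate had 2 members higher and 4 lower, where 26.2% and 26.6% of all genes were called (medians -0.23 and -0.03). LYL1 (0.77 ± 0.22) and ETV6 (0.54 ± 0.13) were higher. ETS1 (-4.37 ± 0.22, adjusted p = 9.4e-09), ERG (-3.30 ± 0.17), FLI1 (-1.06 ± 0.20) and LDB1 (-0.42 ± 0.15) were lower. The LYL1 call was lost in 1 of 13 alternatives (adjusted p up to 0.080) and the LDB1 call in 2 of 13 (up to 0.054). TAL1, LMO2, HHEX and ETV2 were not called, with log2 fold changes from -0.26 to 0.41. The CPM of LMO2 and HHEX was lower in the PTPRC gate without overlap. Their plain log2 CPM ratios were -0.43 and -0.49, and the test's scaling placed the fitted values at -0.20 and -0.26.

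The PF4 gate had 2 members higher and 4 lower than the CDH5 gate, where 26.6% and 27.7% of all genes were called. TAL1 (3.32 ± 0.27, adjusted p = 5.7e-07) and LYL1 (2.91 ± 0.24) were higher, and ERG (-3.91 ± 0.17), ETS1 (-2.30 ± 0.20), HHEX (-1.53 ± 0.17) and LMO2 (-0.43 ± 0.13) were lower. The LMO2 call was lost in 1 of 13 alternatives (adjusted p up to 0.075). FLI1 was not called (0.39 ± 0.20, adjusted p = 0.11), and with the organoid as a block it was (adjusted p = 0.018, range over alternatives 0.018 to 0.24).

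The HBZ gate had 4 members higher and 5 lower than the CDH5 gate. TAL1 (2.31 ± 0.26), LDB1 (2.02 ± 0.14), LYL1 (1.72 ± 0.23) and LMO2 (1.62 ± 0.13) were higher, where 24.9% of all genes were called higher. ERG (-4.43 ± 0.18, adjusted p = 4.5e-09), ETS1 (-4.21 ± 0.22), FLI1 (-3.63 ± 0.22), HHEX (-2.28 ± 0.18) and ETV6 (-2.21 ± 0.13) were lower, where 30.6% of all genes were. ETV2 was not called (-0.51 ± 0.47).

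In a direct comparison of the megakaryocyte and erythroid gates, 7 members were higher in the PF4 gate and 2 lower, where 24.5% and 19.4% of all genes were called (medians 0.88 and 0.14). FLI1 had the largest log2 fold change with 4.03 ± 0.23 (adjusted p = 5.7e-08), and ETV6 had 2.40 ± 0.13, ETS1 1.91 ± 0.20, LYL1 1.19 ± 0.22, TAL1 1.01 ± 0.25 and HHEX 0.76 ± 0.18. LMO2 (-2.05 ± 0.14, adjusted p = 1.9e-07) and LDB1 (-1.85 ± 0.14) were lower. The ERG call (0.52 ± 0.18, adjusted p = 0.034) was lost in 6 of 13 alternatives, with adjusted p up to 0.99.

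Cells positive for both PF4 and HBZ (67 and 354 cells, 20.9% and 43.2% of them predicted doublets) lay between the gates for TAL1 (101 and 124 CPM), LYL1 (218 and 201), LMO2 (277 and 268), LDB1 (21.7 and 31.7), FLI1 (178 and 269), ETV6 (132 and 149.8) and ETS1 (46.6 and 73.1). ERG, ETV2 and HHEX overlapped at least 1 of the gates there. The part of doublets in these values was not tested.

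**Figure D3:**
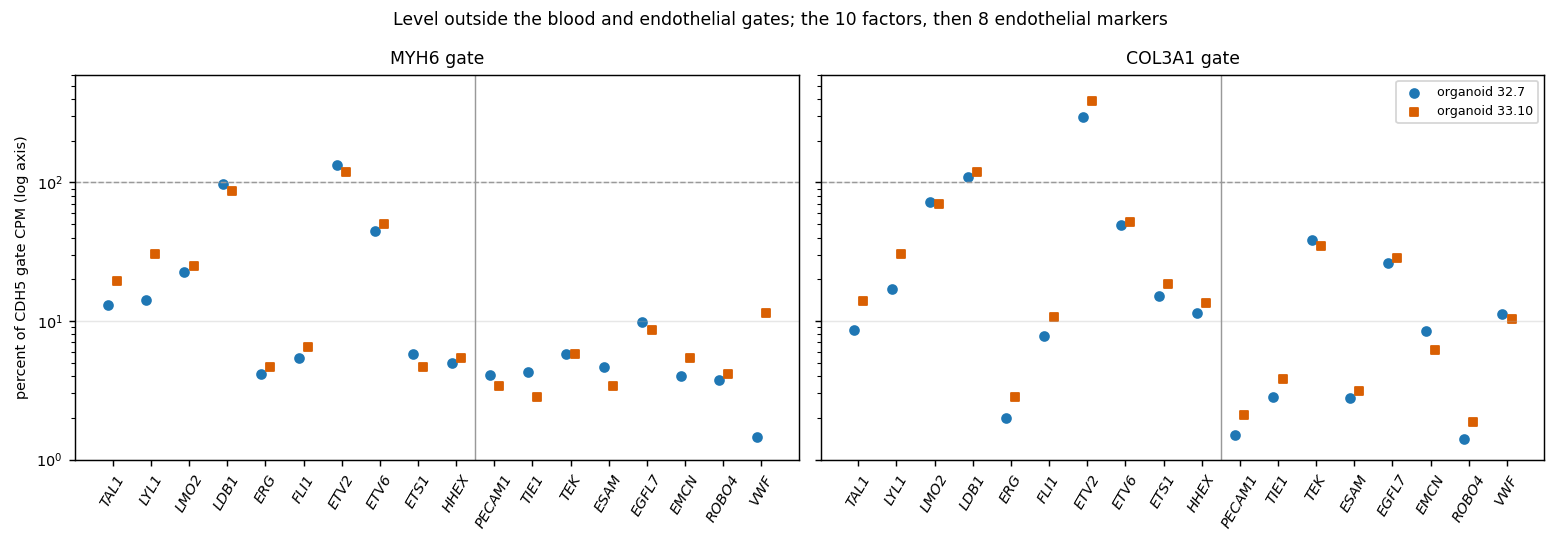
CPM in the MYH6 gate and in the COL3A1 gate as a percent of the CDH5 gate, on a log axis, for the 10 genes and 8 endothelial markers, with 1 point per organoid. ERG lies among the endothelial markers in both gates, and ETV2 in the COL3A1 gate reaches 294% and 386%.

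Outside the blood and endothelial gates, the members took different positions relative to endothelial markers, which such cells should lack. In the MYH6 gate, 8 endothelial markers stood between 1.46% and 11.3% of their CDH5 level, both limits from VWF. ERG (4.17% and 4.63%), FLI1 (5.38% and 6.46%), ETS1 (5.79% and 4.65%) and HHEX (4.997% and 5.39%) lay inside this span. TAL1 (13.1% and 19.5%), LYL1 (14.1% and 30.6%), LMO2 (22.5% and 25.02%), ETV6 (44.4% and 50.3%), LDB1 (96.8% and 87.2%) and ETV2 (133% and 119.7%) lay above it. In the PF4 gate, TAL1 stood at 888% and 832% and LYL1 at 587% and 718% of the CDH5 level. The log2 fold change of TAL1 in the CDH5 gate over the reference ranged from 2.69 to 5.04 over 13 alternatives. Removal of 5% free RNA was among these alternatives. The part of free RNA in the percentages was not tested.

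In the COL3A1 gate, LMO2 stood at 72.8% and 70.2% of its CDH5 level, where TEK, the marker highest there, stood at 38.4% and 34.8%. Within that gate, cells with 5 or more UMIs of TAC1 (477 and 540 cells) had 267 and 196 CPM of LMO2, and cells without a TAC1 UMI (1761 and 1356) had 89.1 and 87.6. TAC1, the gene of the precursor of the neuropeptide substance P, was chosen after the values had been seen, and the difference is a description. FLI1 (45.6 and 55.9 against 20.7 and 36.1 CPM) and HHEX (13.6 and 11.3 against 5.84 and 6.59) were also higher in TAC1 cells without overlap, and the 7 other members overlapped. Among those 7, LYL1 (12.4 and 16.9 against 8.06 and 12.4) and ERG (4.02 and 5.65 against 2.92 and 4.82) were still higher within each organoid. ETS1 (87.1 and 90.4 against 76.3 and 110) was not. The share of all genes that separated in this way was not measured. The lack of overlap is therefore not a result about the members. The TAC1 cells were deeper, with median UMIs of 17606 and 16270 against 11853 and 12289.5.

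Endothelial cells were divided by CXCR4, a chemokine receptor of arterial and sprouting endothelium (972 and 823 cells), and NR2F2, a factor of venous endothelium (364 and 331 cells), each with 2 or more UMIs and with the other gene at 0. ETS1 was at 603 and 647 CPM in CXCR4 cells and at 349 and 358 in NR2F2 cells. TAL1 went the other way with 15.6 and 19.1 against 33.2 and 33.7 CPM, as did LYL1 with 39.6 and 37.7 against 106 and 74.7, and HHEX with 59.3 and 46.1 against 109 and 88.9. These 4 genes had no overlap between the classes. The other members had none either, some only barely, as FLI1 with 365.67 to 415.26 against 359.16 to 365.61 CPM. The lack of overlap is thus not particular to these 4 genes.

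In the fit of these classes, 2 members were higher in CXCR4 cells and 3 lower, where 12.7% and 14.5% of 15889 genes were called in these directions. ETS1 was higher by a log2 fold change of 0.89 ± 0.10 (adjusted p = 0.00021) and LMO2 by 0.41 ± 0.12 (adjusted p = 0.027), the LMO2 call being lost in 1 of 11 alternatives (adjusted p up to 0.052). LYL1 (-1.17 ± 0.17, adjusted p = 0.00096), TAL1 (-0.89 ± 0.15, adjusted p = 0.0023) and HHEX (-0.85 ± 0.16, adjusted p = 0.0044) were lower. ERG, at 172 and 183 against 210.4 and 211 CPM, was not called (-0.18 ± 0.10, adjusted p = 0.21), and with the organoid as a block it was (adjusted p = 0.028, range over alternatives 0.028 to 0.62). FLI1 (0.17 ± 0.10), ETV6 (-0.13 ± 0.11), LDB1 (-0.34 ± 0.19) and ETV2 (-0.38 ± 0.42) were not called.

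**Figure D4:**
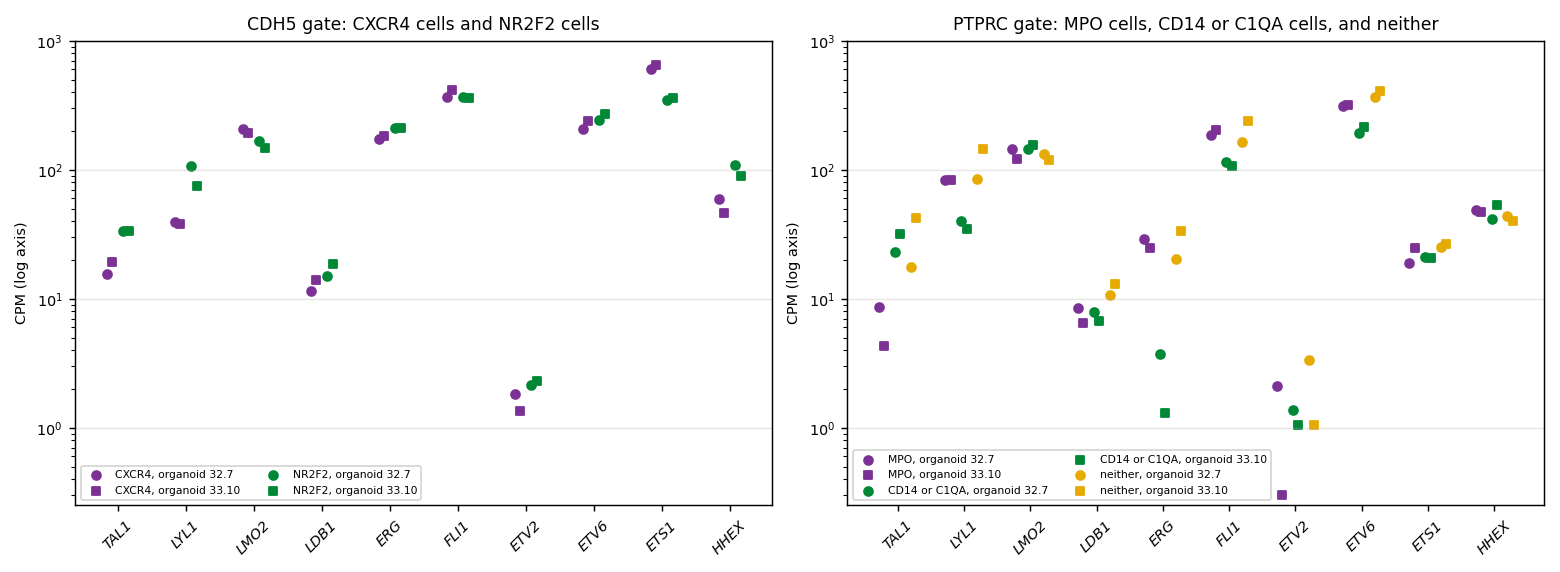
CPM of the 10 genes on a log axis in subdivisions of the CDH5 and PTPRC gates, with 1 point per organoid. ETS1 is higher in CXCR4 cells and TAL1, LYL1 and HHEX are higher in NR2F2 cells, ERG is lowest in CD14 or C1QA leukocytes (3.73 and 1.30 CPM), and the ETV2 value of 0 in MPO cells of organoid 33.10 is drawn at 0.3.

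RUNX1 marks endothelium that gives rise to blood. CDH5 cells with 2 or more RUNX1 UMIs numbered 29 and 41, against 1976 and 1851 cells at 0. TAL1 was at 35.4 and 47.6 CPM in the former and 19.4 and 21.4 in the latter, and LYL1 at 76.0 and 134 against 53.3 and 42.7. Both were called higher (TAL1 1.03 ± 0.24, adjusted p = 0.031, and LYL1 1.14 ± 0.22, adjusted p = 0.010), which made 2 of 10 members where 2.24% of 16968 genes were called higher, and none lower where 0.666% were. Stricter gates ended both calls (adjusted p up to 0.17 for TAL1 and 0.12 for LYL1).

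Of the RUNX1-positive cells, 27.6% and 53.7% were predicted doublets, and they held 1392 and 661 CPM of CLC, an eosinophil gene, against 2.18 and 7.45 in RUNX1-negative cells. With predicted doublets removed, 21 and 19 cells remained, too few for the test, and TAL1 was at 16.4 and 24.9 CPM against 19.2 and 21.3, with overlapping ranges. LYL1 was then at 68.1 and 94.2 against 53.1 and 43.4, without overlap, and CLC was then at 0 and 1540.0 CPM against 2.22 and 1.90. The part of leukocyte RNA in these values was not tested. ERG (152 and 119 against 181 and 188 CPM) and ETS1 (431 and 391 against 531 and 571) were not called (adjusted p = 0.13 and 0.086), and with the organoid as a block both were lower (adjusted p = 0.020 and 0.0061, ranges over alternatives 0.020 to 0.25 and 0.0061 to 0.37).

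Leukocytes were divided into cells with MPO, a granule enzyme of early neutrophils (188 and 37 cells), and cells with CD14 or C1QA, genes of monocytes and macrophages (400 and 212 cells). ERG was at 29.2 and 24.7 CPM in MPO cells and 3.73 and 1.30 in the others, a log2 fold change of 3.30 ± 0.41 (adjusted p = 0.00048). LYL1 was at 83.4 and 82.7 against 39.8 and 34.9 CPM (1.15 ± 0.16), FLI1 at 185 and 203 against 115 and 106 (0.80 ± 0.14) and ETV6 at 311 and 316 against 193 and 213 (0.63 ± 0.13). These 4 of 9 members tested were called higher, where 8.47% of 13331 genes were.

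TAL1 was the member called lower in MPO cells, with 8.66 and 4.30 CPM from 41 and 4 UMIs against 23.1 and 31.5 (-1.80 ± 0.31, adjusted p = 0.0034), where 11.8% of all genes were called lower. TAL1 and LYL1, alike over the main gates, thus went in opposite directions between these leukocytes. LMO2, LDB1, ETS1 and HHEX were not called, with log2 fold changes from -0.14 to 0.10, and ETV2 did not pass the filter on low counts. The remaining PTPRC cells (232 and 133, a class added after the values had been seen) held 2297 and 3205 CPM of CLC, with TAL1 at 17.6 and 42.0, LYL1 at 84.0 and 145, ERG at 20.4 and 33.5 and ETV6 at 369 and 407 CPM.

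Cycling cells, with 2 or more UMIs of TOP2A and MKI67 together, were set beside cells with none. In the PF4 gate, TAL1 was at 119 and 127 CPM in cycling cells and 202 and 212 in the others, and LYL1 at 273 and 280.0 against 343 and 348. In the HBZ gate, LMO2 (466 and 482 against 364 and 368) and LDB1 (51.1 and 52.2 against 30.3 and 31.0) were higher in cycling cells. ETS1 was lower in cycling cells of the CDH5 gate (381 and 389 against 546 and 587) and of the PTPRC, PF4 and HBZ gates. The groups did not overlap in any of these, which are descriptions with no test. Other members also separated, as ERG in the CDH5 gate (164 and 154 against 181 and 191). HHEX in the HBZ gate did so too (7.17 and 6.73 against 12.2 and 14.3). The lack of overlap is thus not particular to the genes named first, and its share over all genes was not measured. Cycling cells were deeper in all 4 gates, as in the HBZ gate with median UMIs of 20351 and 16367 against 4873.5 and 6891.5.

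The genes around the members were taken from 4 lists of partners, relatives and targets. Of 17 partners of the SCL complex, 7 were higher and 4 lower in the CDH5 gate than in the reference, where 27.5% and 29.8% of all genes were (median log2 fold change 0.07, all genes -0.03). LDB2, the relative of LDB1, was higher by 3.87 ± 0.22, the E proteins TCF4 by 2.65 ± 0.14 and TCF12 by 0.53 ± 0.12, and the inhibitors ID1 by 2.56 ± 0.18 and ID3 by 1.49 ± 0.16. The 4 lower ones were LMO4 (-1.22 ± 0.16), ID2 (-0.75 ± 0.18), LMO1 (-2.95 ± 0.50) and RUNX1 (-0.93 ± 0.25). LDB2 was at 2577 and 2822 CPM in the CDH5 gate and at 105 and 80.0 in the HBZ gate (-4.41 ± 0.29), where LDB1 was highest. In PF4 over HBZ cells, RUNX1 (1.22 ± 0.27), CBFA2T3 (1.79 ± 0.31), ID2 (1.44 ± 0.20) and SSBP2 (1.38 ± 0.17) were higher and TCF3 (-2.06 ± 0.14), TCF4 (-1.68 ± 0.17), LMO4 (-0.90 ± 0.17) and the erythroid factor KLF1 (-3.85 ± 0.46) lower.

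Of 20 other ETS factors, 16 passed the filter, and 7 were higher and 3 lower in the CDH5 gate than in the reference, beside the same 27.5% and 29.8% of all genes (median 0.29, all genes -0.03). ETS2 (2.34 ± 0.12) and ELK3 (2.28 ± 0.09) were among the higher ones, and ETV1 (-2.78 ± 0.22), ELF3 (-3.09 ± 0.56) and SPI1 (-1.16 ± 0.27) were the lower ones. SPI1, which directs myeloid cells, was at 318 and 283 CPM in the PTPRC gate and 2.00 and 1.46 in the CDH5 gate. ELF1 was at 372 and 395 CPM in the PF4 gate and 102 and 110.0 in the CDH5 gate (2.08 ± 0.13). ETS2 (-3.27 ± 0.15) and ELK3 (-2.10 ± 0.12) were lower in the PF4 gate than in the CDH5 gate, as ETS1 and ERG were.

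All 10 endothelial genes known as ETS targets were higher in the CDH5 gate than in the reference, where 27.5% of all genes were (median 3.61, all genes -0.03). All 10 were lower than there in the PTPRC, PF4 and HBZ gates, with medians of -4.10, -3.01 and -4.24, where 26.6%, 27.7% and 30.6% of all genes were lower. The PF4 gate, whose FLI1 level overlapped that of the CDH5 gate, held 121 and 134 CPM of KDR against 991 and 976 and 121 and 119 CPM of FLT1 against 2196 and 2257. Between CXCR4 and NR2F2 cells, ANGPT2 (3.91 ± 0.16), FLT1 (1.67 ± 0.12), ESAM (1.05 ± 0.14) and ROBO4 (0.59 ± 0.15) were higher and TEK (-2.69 ± 0.10) lower. Of the 10 genes, 5 also served as markers of the gate, so the list is no independent evidence of it.

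Of 10 blood genes known as targets of the SCL complex, 8 were higher and 1 (CD34, -2.52 ± 0.19) lower in the PF4 gate than in the CDH5 gate, where 26.6% and 27.7% of all genes were (medians 4.63 and -0.0023). In the HBZ gate 6 were higher and 1 (CD34, -4.34 ± 0.21) lower, where 24.9% and 30.6% of all genes were (medians 1.85 and -0.06). ITGA2B, a platelet integrin, was at 820.1 and 784 CPM in the PF4 gate and 17.3 and 21.5 in the HBZ gate. In PF4 over HBZ cells, 6 of the 10 were higher and 3 lower, where 24.5% and 19.4% of all genes were. GFI1B (1.59 ± 0.36) and GP9 (6.81 ± 0.53) were among the higher ones. The erythroid genes EPB42 (-5.16 ± 0.35) and ALAS2 (-3.23 ± 0.54) were among the lower ones. This list shares genes with the megakaryocyte and erythroid markers.

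Beyond the pair of TAL1 and LYL1, each member had neighbours in its pattern over the 14 sums. ERG was most like PPP1R16B (r = 0.993) and PTPRB (0.993), ETS1 like EGFL7 (0.980), FLI1 like TACC1 (0.986) and LMO2 like DRAM1 (0.981). HHEX was most like LGALS8 (0.978), LDB1 like WRN (0.974), ETV6 like TEP1 (0.953) and ETV2 like RGS2 (0.937). Among the members, r was 0.746 for ERG and ETS1, 0.767 for ERG and HHEX and 0.769 for FLI1 and HHEX. It was 0.782 for FLI1 and ETV6, 0.709 for LMO2 and LDB1 and -0.803 for LDB1 and ETV6. These values describe points that share 2 libraries. The AFP gate, where HHEX was highest, is not among them, and the cells positive for both PF4 and HBZ are.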

How the data were processed

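Single-cell RNA sequencing had been made of 2 dissociated organoids with a 10x Genomics 3′ kit. The deposited UMI counts per gene and cell were made by the authors with Cell Ranger 7.0.0 against GRCh38, intronic reads included. The study's cell filter (50 to 11000 genes, mitochondrial share below 30%) left 16792 and 19893 cells. Gates required at least 2 (CDH5, PTPRC), 5 (PF4, MYH6, AFP), 10 (COL3A1) or 20 (HBZ) UMIs, or 3 times the library median if larger. The MPO and TAC1 subdivisions required 5 UMIs and the other subdivisions 2. Counts were summed per class and organoid and tested with edgeR 4.0.16 in R 4.3.3 (quasi-likelihood, TMM, filterByExpr, Benjamini-Hochberg, threshold 0.05), classes under 20 cells left out, with each subdivision in a fit of its own. DESeq2 1.42.0 was an alternative.

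Doublets were predicted with Scrublet in scanpy 1.11.5 and kept, their removal being an alternative. Classes of 1 organoid are paired by that organoid, and their deviations from the class means correlated between 0.0794 and 0.545 (median 0.303) over 21 pairs of classes, so blocked values are given where a call changed. The fits were also run on simulated counts, where 100 genes were shifted by 1 and 100 by 2 on the log2 scale. Between RUNX1-positive and RUNX1-negative cells, 26 and 68 of these were recovered, so a member not called there may still differ. The other comparisons recovered 51 to 77 and 94 to 100. False calls in the simulation ranged from 1.69% (PF4 gate over reference) to 7.05% (MPO over CD14 or C1QA leukocytes). The next highest were 6.02% (PTPRC gate) and 5.29% (HBZ gate), both over the CDH5 gate. The simulated counts had a common dispersion for all genes, no organoid effect and fewer changed genes than were called in the data. These rates therefore describe the simulation, and the error rate in the data was not measured. Genes named beside the members were the up to 6 of each list with the highest mean CPM, any counted at 5 or fewer, and the genes most like a member. CLC, TAC1 and the endothelial markers ROBO4 and VWF were singled out after their values were seen. The members and lists were chosen with earlier results of these data known. The values of 1 list gene are not reported here.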

Additional observations from a re-analysis of the deposited data

How the results depend on the processing

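Over the alternatives (normalization, low-count filter, DESeq2, gates, cell filter, predicted doublets, shared barcodes, free RNA, organoid block, classes in the fit), 1311 member results kept direction and side of the threshold, 13 lost it, 13 gained it and 12 changed sign. The cause of these changes was not tested. In 1 organoid at a time, 67 of the ratios lay further from the fitted value than the standard deviation of the 2 organoids' ratios, and 151 did not. That deviation comes from the same 2 ratios and is small where the organoids agree, so the count does not measure their agreement. No called result changed sign in 1 organoid, which is no separate support, since the calls rest on these same 2 organoids. Results that were not called did change sign. For TAL1 in the PTPRC over the CDH5 gate, the log2 ratios of TMM-scaled CPM were -0.037 and 0.62. Between RUNX1-positive and RUNX1-negative cells, members called went from 2 to 4 with no filter on low counts, 4 with the organoid block and 0 with stricter gates, and all genes called from 493 to 265 with looser gates, 1029 with no filter, 944 with the block and 200 with stricter gates. Between MPO and CD14 or C1QA leukocytes, DESeq2 called 1735 genes against 2704.

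Stricter gates turned LDB1 in the endothelial gate over the reference to 0.039 and ETV2 in CXCR4 over NR2F2 cells to 0.39. Looser gates turned ETV2 there to 0.18, ERG in PF4 over HBZ cells to -0.0069, LDB1 and ETV2 in RUNX1-positive cells to -0.056 and -0.98, and HHEX in MPO cells to -0.0038. Removal of 5% free RNA turned FLI1 in the HBZ gate over the reference to -0.028, and removal of predicted doublets turned HHEX in MPO cells to -0.026. ETS1 in MPO cells turned to 0.032 with DESeq2, 0.0057 with RLE size factors and 0.00097 without shared barcodes, a setting chosen after seeing the data. Of these only ERG had been called. The blocked fit changed the calls given beside the results and no other member's call. With 2 organoids of 1 line, small differences of low genes such as ETV2 could not be resolved at this depth, and the AFP gate could not be tested.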

Other observations

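Cells positive for both CDH5 and PTPRC numbered 58 and 16, of which 79.3% and 56.2% were predicted doublets, and they were not tested. ERG was at 92.1 and 92.2 CPM there, ETS1 at 204 and 184 and FLI1 at 240.1 and 262, each between the CDH5 and PTPRC gates. Cells assigned to no gate or double-positive class (7149 and 8113 cells) held 150.3 and 147 CPM of LMO2 and 3.19 and 2.92 CPM of ETV2. Of them, 5335 and 5970 were positive for no gate gene and the rest for several. Predicted doublets made up 21.1% and 24.4% of this class.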
